A study of Mus musculus with 18 samples.

Results

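Aminoacyl-tRNA synthetases are the enzymes that join each amino acid to its transfer RNA. The genes described here were chosen by name: they are the protein-coding genes of the deposited count table whose symbol is a letter code followed by ars, with or without a closing 2, together with Farsa, Farsb, Eprs and Ears2. The rule found 37 genes among the 25957 genes of the table, of which 16179 were protein-coding. All 37 passed the filter on low counts, which left 10075 genes for testing. The 20 cytosolic genes were Aars, Cars, Dars, Eprs, Farsa, Farsb, Gars, Hars, Iars, Kars, Lars, Mars, Nars, Qars, Rars, Sars, Tars, Vars, Wars and Yars. There were 17 mitochondrial genes, whose names end in 2, and those described singly below are Aars2, Cars2, Iars2, Lars2, Nars2 and Yars2.

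The cells were C2C12, an established line of mouse myoblasts, the dividing precursors of muscle fibres, grown in medium with 20% fetal bovine serum. Their RNA was counted by BRB-seq, which tags the cDNA of each sample with a barcode before pooling and reads mostly the 3′ ends of polyadenylated RNA. There were 6 groups of 3 libraries, 18 libraries in all. In 3 groups the cells were rinsed with PBS and then left at 37 °C with 0.25% trypsin, in 200 µL per well, for 30 s, for 3 min or for 30 min. The low trypsin group got the same rinse and the same trypsin, which was withdrawn immediately, and then stood for 3 min at 37 °C. The cold-active protease group was rinsed likewise and shaken in 200 µL of that enzyme at 4 °C for 5 min. Control cells were lysed on the plate and scraped off. No gene was altered in any group. Treated cells differed from control cells in rinse, incubation and harvest as well as enzyme, so the enzyme and these steps cannot be told apart in a comparison with control. The labels call the 3 libraries of a group lots without saying whether these were separate cultures, so each p-value speaks only of the spread among these libraries, which may be technical.

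In mammalian cells most cytosolic synthetases are encoded separately from the mitochondrial ones, and both sets are nuclear genes. Gars and Kars are exceptions, since either gene makes the cytosolic and the mitochondrial enzyme. Eprs joins the glutamyl and prolyl enzymes in a single chain, and together with Iars, Lars, Mars, Qars, Rars, Kars and Dars it sits in a large multisynthetase complex held by the scaffold proteins Aimp1, Aimp2 and Eef1e1. Several cytosolic synthetase genes are known targets of Atf4, the transcription factor of the integrated stress response, a pathway in which kinases that phosphorylate the initiation factor eIF2 lower general translation and favour Atf4. Atf4 bound with a C/EBP partner recognises a composite promoter element.

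The composite element was searched as TGATGCAA on both strands in windows from 250 bases before to 50 bases after each gene start, taken from RefSeq on GRCm38.p6. A window was matched for 13 of the 20 cytosolic genes, 14 of the 17 mitochondrial genes and 18 of 19 listed stress response regulators present in the count table. The element stood in 4 of the 13 cytosolic genes (30.8%), in 0 of the 14 mitochondrial genes and in 3 of the 18 regulators (16.7%), against 294 of all 32851 windows (0.895%). The looser form TGATGNAA, which includes every match of the stricter form, added Gars and gave 5 of 13 (38.5%), 0 of 14 and 4 of 18 (22.2%), against 1304 of all windows (3.97%). A match is a description of these letters and not evidence of binding. The windows of the 4 cytosolic genes with the stricter element are shown with those of the 3 regulators that have it, Atf3, Chac1 and Nupr1, because these windows carry the same letters. Capitals mark the element, which reads TTGCATCA where it lies on the other strand. Each window is written in the direction of its gene, and base 1 is the gene start. The Aars window is chr8:111033592-111033891 (plus strand, element at -112 to -105) and the Iars window chr13:49681880-49682179 (plus strand, element at 8 to 15). The Tars window is chr15:11399609-11399908 (minus strand, element at -15 to -8) and the Yars window chr4:129189653-129189952 (plus strand, element at 4 to 11). The Atf3 window is chr1:191183284-191183583 (minus strand, element at -110 to -103). The Chac1 window is chr2:119350992-119351291 (plus strand, element at -193 to -186) and the Nupr1 window chr7:126625421-126625720 (minus strand, element at -110 to -103).
Aars: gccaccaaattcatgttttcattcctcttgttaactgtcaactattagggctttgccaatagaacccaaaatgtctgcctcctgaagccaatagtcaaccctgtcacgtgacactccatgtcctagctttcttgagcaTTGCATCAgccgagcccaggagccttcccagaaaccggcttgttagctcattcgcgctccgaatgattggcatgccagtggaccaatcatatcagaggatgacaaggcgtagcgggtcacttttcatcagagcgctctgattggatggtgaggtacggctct
Iars: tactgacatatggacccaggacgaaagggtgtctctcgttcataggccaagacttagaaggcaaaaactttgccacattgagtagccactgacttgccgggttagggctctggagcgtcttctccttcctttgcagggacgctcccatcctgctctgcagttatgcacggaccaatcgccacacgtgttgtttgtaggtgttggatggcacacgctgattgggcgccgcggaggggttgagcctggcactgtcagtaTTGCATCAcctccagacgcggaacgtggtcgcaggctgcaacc
Tars: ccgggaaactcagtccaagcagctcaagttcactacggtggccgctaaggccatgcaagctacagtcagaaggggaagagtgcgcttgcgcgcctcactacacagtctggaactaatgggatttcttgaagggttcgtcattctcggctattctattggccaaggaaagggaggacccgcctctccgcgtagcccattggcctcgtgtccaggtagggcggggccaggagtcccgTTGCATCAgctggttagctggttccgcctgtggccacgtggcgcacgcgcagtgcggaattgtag
Yars: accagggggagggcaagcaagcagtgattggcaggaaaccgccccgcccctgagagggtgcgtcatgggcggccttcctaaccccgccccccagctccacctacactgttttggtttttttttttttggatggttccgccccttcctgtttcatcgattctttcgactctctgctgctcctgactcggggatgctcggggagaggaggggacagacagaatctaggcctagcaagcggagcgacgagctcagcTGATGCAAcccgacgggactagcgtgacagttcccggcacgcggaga
Atf3: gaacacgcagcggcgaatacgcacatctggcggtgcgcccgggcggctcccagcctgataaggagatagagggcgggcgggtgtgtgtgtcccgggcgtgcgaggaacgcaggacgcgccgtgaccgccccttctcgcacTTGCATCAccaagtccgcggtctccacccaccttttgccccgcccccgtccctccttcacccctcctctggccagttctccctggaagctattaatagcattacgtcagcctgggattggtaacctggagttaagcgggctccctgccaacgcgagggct
Chac1: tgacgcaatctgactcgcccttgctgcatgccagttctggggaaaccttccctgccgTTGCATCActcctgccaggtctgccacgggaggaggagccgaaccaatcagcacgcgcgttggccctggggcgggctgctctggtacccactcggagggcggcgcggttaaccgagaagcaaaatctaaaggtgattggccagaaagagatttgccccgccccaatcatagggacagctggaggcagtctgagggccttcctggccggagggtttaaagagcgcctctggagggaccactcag
Nupr1: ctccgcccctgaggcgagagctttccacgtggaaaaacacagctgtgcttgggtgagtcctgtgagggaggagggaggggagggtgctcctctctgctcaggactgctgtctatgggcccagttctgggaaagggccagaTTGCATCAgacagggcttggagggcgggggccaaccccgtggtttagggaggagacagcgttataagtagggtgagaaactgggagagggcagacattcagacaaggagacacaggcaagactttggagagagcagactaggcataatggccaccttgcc

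Library totals were 1490869 to 2480690 counts, with 13827 to 15468 genes above 0, and 3 counts corresponded to 1.21 to 2.01 CPM. Levels below are CPM, the count relative to the library total, scaled by edgeR's TMM factors, which correct for the make-up of each library. The myoblast markers Myod1 (45.3 to 67.7 CPM), Myf5 (57.04 to 133 CPM), Cdh15, Des and Itga7 were present in every library. Ptprc, Pecam1, Cdh5 and Epcam, markers of blood, endothelium and epithelium, stayed at or below 1.09 CPM. Krt8, the other epithelial marker listed, had 1.49, 3.79 and 3.27 CPM in low trypsin libraries, against 0, 1.47 and 1.41 CPM in control libraries, and at most 1.26 CPM in the other treated libraries; its part in the results for low trypsin was not tested. Changes are log2 values of treatment over control with their standard errors (SE), and a gene was called where the edgeR quasi-likelihood F test gave an adjusted p under 0.05 after Benjamini-Hochberg adjustment over all 10075 genes. The calls against control were 6.94% of all genes tested at 30 s, 3.96% at 3 min, 4.68% at 30 min, 5.19% in low trypsin and 0.665% with the cold-active protease.

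The cytosolic synthetases were well counted, with 93 to 809 counts per gene and library, whereas the mitochondrial ones had 1 to 603. For pairs of enzymes for the same amino acid, levels were set side by side both as CPM per kilobase of annotated mRNA and as plain CPM. BRB-seq reads mostly the 3′ end, so counts need not grow with length and division by length can itself move a ratio; plain CPM was added after the data were seen. On either scale, across 14 such pairs, the cytosolic gene was above its mitochondrial partner in all 18 libraries for 13 pairs. In control libraries the ratio of cytosolic to mitochondrial level had a median of 8.92 per kilobase (0.596 to 31.3) and 6.01 in CPM (0.609 to 53.8). For alanine, which had the widest gap on both scales, Aars stood at 35.1 ± 0.684 and Aars2 at 1.12 ± 0.435 CPM per kilobase in control libraries (SD, n = 3), a ratio of 31.3 per kilobase and 53.8 in CPM. Aars shares 1326 exonic bases on the same strand with Exosc6, so reads of both genes may be mixed. For tyrosine the gap was narrow, with Yars at 34.3 ± 0.777 and Yars2 at 24.3 ± 1.90 CPM per kilobase, a ratio of 1.41 per kilobase and 2.604 in CPM. Leucine was the exception: Lars stood at 22.2 ± 1.276 and Lars2 at 37.4 ± 17.97 CPM per kilobase in control libraries, and Lars was the higher of the pair in 9 of 18 libraries on either scale. Lars2 ranged from 37.4 to 404 CPM over the 18 libraries. It shares runs of 31 bases with 58 annotated genes, so its counts may include reads of other genes.

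Summed over the 20 cytosolic genes, the mean synthetase mRNA level lay between 2966 and 3174 CPM in every group. The 30 s libraries averaged 3126 ± 34.4 CPM, the 3 min libraries 3120 ± 30.8 and the 30 min libraries 3093 ± 31.3 (SD, n = 3). Low trypsin libraries averaged 2966 ± 70.7 CPM, cold-active protease libraries 3131 ± 66.4 and control libraries 3174 ± 75.7. The low trypsin libraries had 2918, 2934 and 3048 CPM, all under the control libraries at 3239, 3091 and 3192 CPM. The other treated groups overlapped the control group. In bulk RNA, a smaller share of cells with an mRNA and less of that mRNA per cell cannot be told apart. The differentiated muscle markers Myog, Ckm, Acta1, Myh3, Mymk and Mylpf summed to less than in control libraries (243 to 271 CPM) in every treated group, without overlap. The sums were 202 to 213 CPM at 30 s, 178 to 218 at 3 min, 182 to 224 at 30 min, 167 to 204 in low trypsin and 218 to 220.4 with the cold-active protease. Mylpf (mean 101 CPM) and Acta1 (95.3 CPM) were the largest parts of the control sum. The 6 genes did not move alike. Mylpf averaged 62.3 CPM at 30 s and 57.6 at 3 min, whereas Myog averaged 29.5 CPM in control libraries and 25.2 to 29.6 in treated groups. Myh3 was above its control mean at 3 min and with the cold-active protease, and below it in the other treated groups. Of the 5 differentiated muscle markers tested, 1 was called lower at 30 s, 3 min, 30 min and in low trypsin, and 0 with the cold-active protease. Of all 10075 genes tested, 373, 297, 263, 191 and 47 were called lower in the same order. In low trypsin the marker called was Mylpf, where 1.9% of all genes tested were called lower. None of the 6 was at 0 throughout. Of the 5 myoblast markers, 1 was called higher at 30 s, at 30 min and in low trypsin, and 0 at 3 min and with the cold-active protease. Of all 10075 genes tested, 326 were called higher at 30 s, 209 at 30 min and 332 in low trypsin. Myf5 averaged 116 CPM at 30 s, 123 at 30 min and 92.7 in low trypsin, against 72.1 CPM in control libraries. The part of either set of markers in the synthetase levels was not tested. Summed over 16 mitochondrial genes, leaving out Lars2, the 30 s libraries averaged 327 ± 7.87 CPM, the 3 min libraries 334 ± 4.23 and the 30 min libraries 321 ± 32.4. Low trypsin libraries averaged 309 ± 20.1 CPM, cold-active protease libraries 325 ± 11.97 and control libraries 327 ± 16.9, with overlap between every treated group and control.

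**Figure D1:**
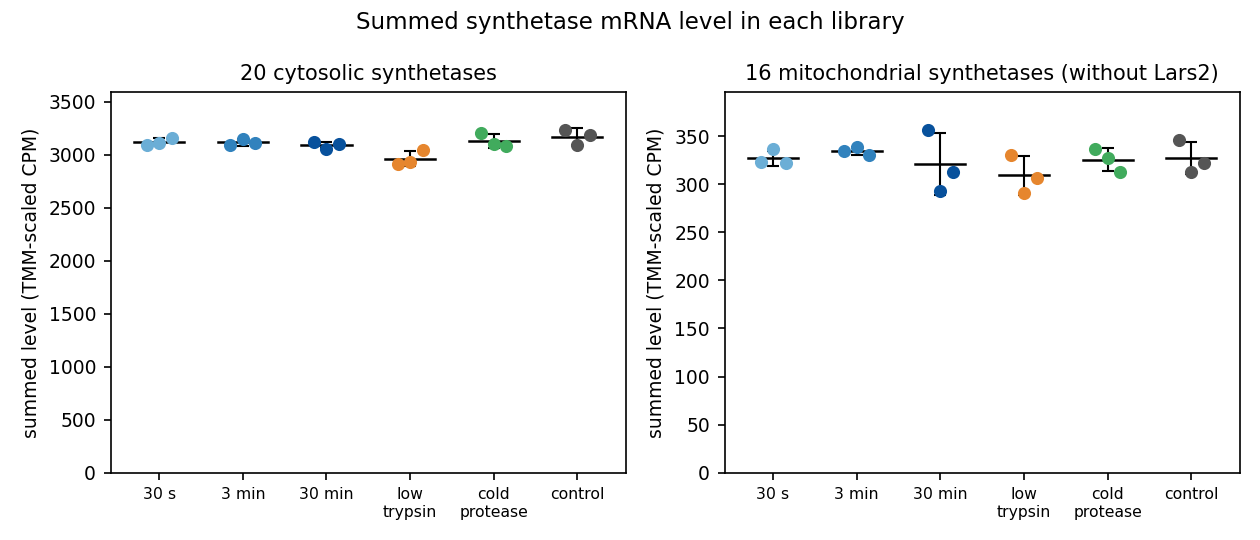
Summed level of the synthetase mRNAs in each library (y axis, TMM-scaled CPM) by group (x axis), for the 20 cytosolic genes on the left and 16 mitochondrial genes without Lars2 on the right; points are libraries, bars the mean ± SD of 3. The low trypsin libraries (2918 to 3048 CPM) lie under the control libraries (3091 to 3239 CPM) in the left panel.

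No cytosolic synthetase was called against control in any of the 5 comparisons by edgeR or by DESeq2, which called 5.4%, 3.27%, 3.27%, 3.96% and 0.407% of all genes in the order just given; edgeR with robust dispersion, a setting added after the data were seen, called Tars after 30 s. At an unadjusted p under 0.05 there were 2 of 20 at 30 s (15.9% of all genes tested), 0 at 3 min (12.8%), 2 at 30 min (16.4%), 4 in low trypsin (15.6%) and 0 with the cold-active protease (8.78%), all of them lower than control. Median log2 changes of the 20 genes were -0.01, -0.03, -0.05, -0.12 and 0.0045 in the same order, and the median of all genes tested was between -0.0029 and 0.0091. The 95% interval of the change lay within 0.5 of 0 for all 20 cytosolic genes in each of the 5 comparisons, which held for 50.1%, 49.2%, 48.7%, 51.6% and 55.3% of all genes tested. The lowest bound among them was -0.48 (Qars, low trypsin) and the highest 0.39 (Cars, 30 min). Such narrow intervals go with the counts behind these genes.

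The libraries of both groups did not overlap for 4 of 20 cytosolic genes at 30 s (21.9% of all genes tested), 3 at 3 min (17.6%), 8 at 30 min (19.5%), 8 in low trypsin (19.6%) and 3 with the cold-active protease (14.1%). The 8 members of the multisynthetase complex had median changes of -0.03 at 30 s, -0.03 at 3 min, -0.06 at 30 min, -0.13 in low trypsin and -0.03 with the cold-active protease. The 12 cytosolic synthetases outside the complex had medians of 0.05, -0.03, 0.02, -0.11 and 0.02. None was called in either set by the main edgeR test or by DESeq2. With a trend in mRNA length removed, edgeR called Eprs, a complex member, at 30 min and Tars, outside the complex, at 30 s. Low trypsin gave the most uniform picture, with a negative sign in 16 of 20 cytosolic genes and a positive sign in 4, where all genes tested had 5099 negative and 4976 positive.

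**Figure D2:**
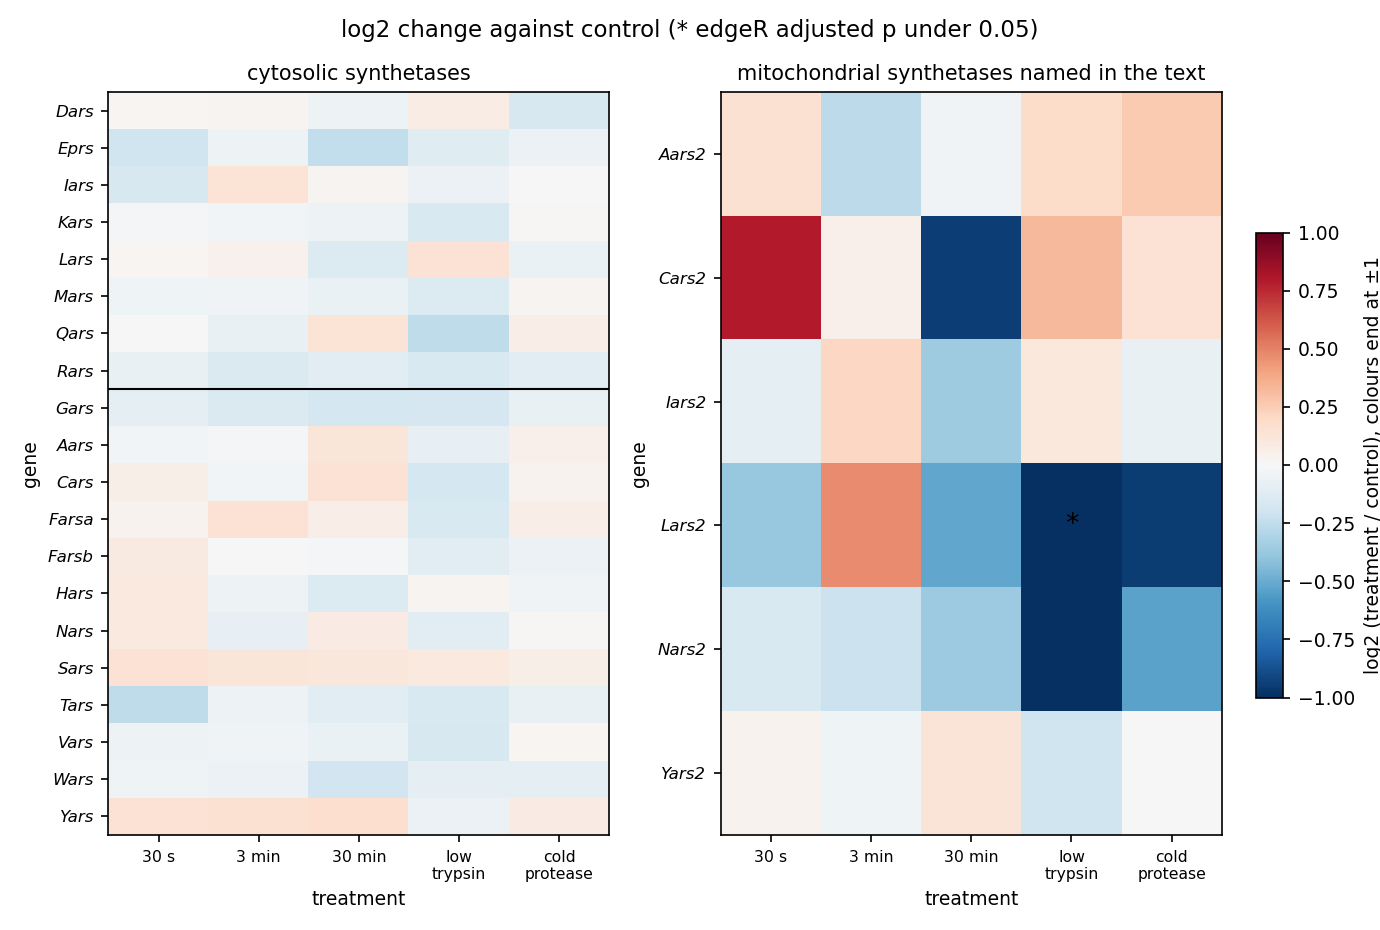
Colour gives the log2 change of each synthetase mRNA (rows) in each treatment against control (columns), cytosolic genes on the left with the 8 complex members above the line, the 6 mitochondrial genes described singly on the right; colours end at ±1 and a star marks an edgeR adjusted p under 0.05. Cytosolic changes lie between -0.25 and 0.17, and the single star is Lars2 in low trypsin.

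The cytosolic genes with an unadjusted p under 0.05 against control were picked for description after their values were seen. Tars, the threonyl enzyme, had 130, 153 and 143 CPM after 30 s, against 168, 172 and 165 CPM in control libraries. All 30 s libraries lay under all control libraries, with a log2 change of -0.25 ± 0.08 (SE) and an edgeR adjusted p of 0.0579. With only the 30 s and control groups in the fit, Tars was called. Eprs, the glutamyl-prolyl enzyme, had 203, 168 and 178 CPM after 30 s and 175, 173 and 187 CPM after 30 min, against 198, 202 and 231 CPM in control libraries. The 30 s group overlapped control (log2 -0.20 ± 0.08, edgeR adjusted p = 0.145) and the 30 min group lay wholly under it (log2 -0.24 ± 0.08, edgeR adjusted p = 0.0768). Gars, the glycyl enzyme, had 265, 264 and 241 CPM after 30 min and 241, 240 and 291 CPM for low trypsin, against 304, 279 and 289 CPM in control libraries. Its 30 min libraries lay under control (log2 -0.18 ± 0.07, edgeR adjusted p = 0.186), and of the low trypsin libraries a single one overlapped it (log2 -0.17 ± 0.07, edgeR adjusted p = 0.2).

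In low trypsin, Kars, the lysyl enzyme, had 309, 304 and 319 CPM, against 376, 329 and 335 CPM in control libraries. Vars, the valyl enzyme, had 208, 231 and 222 CPM in low trypsin, against 261, 237 and 243 CPM in control libraries. Qars, the glutaminyl enzyme, had 84.2, 70.4 and 80.4 CPM in low trypsin, against 96.9, 90.9 and 92.9 CPM in control libraries. For each of these 3 genes every low trypsin library was under every control library. The log2 changes were -0.15 ± 0.07 for Kars, -0.16 ± 0.07 for Vars and -0.25 ± 0.11 for Qars, with edgeR adjusted p-values of 0.208, 0.213 and 0.253. Sars, the seryl enzyme, moved the other way in sign: its 15 treated libraries had 165 to 187 CPM and its control libraries 164, 160 and 154 CPM. All treated libraries were above all control libraries, but the log2 changes were only 0.06 to 0.14, the 5 comparisons share the same control libraries, and the lowest edgeR adjusted p was 0.363.

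**Figure D3:**
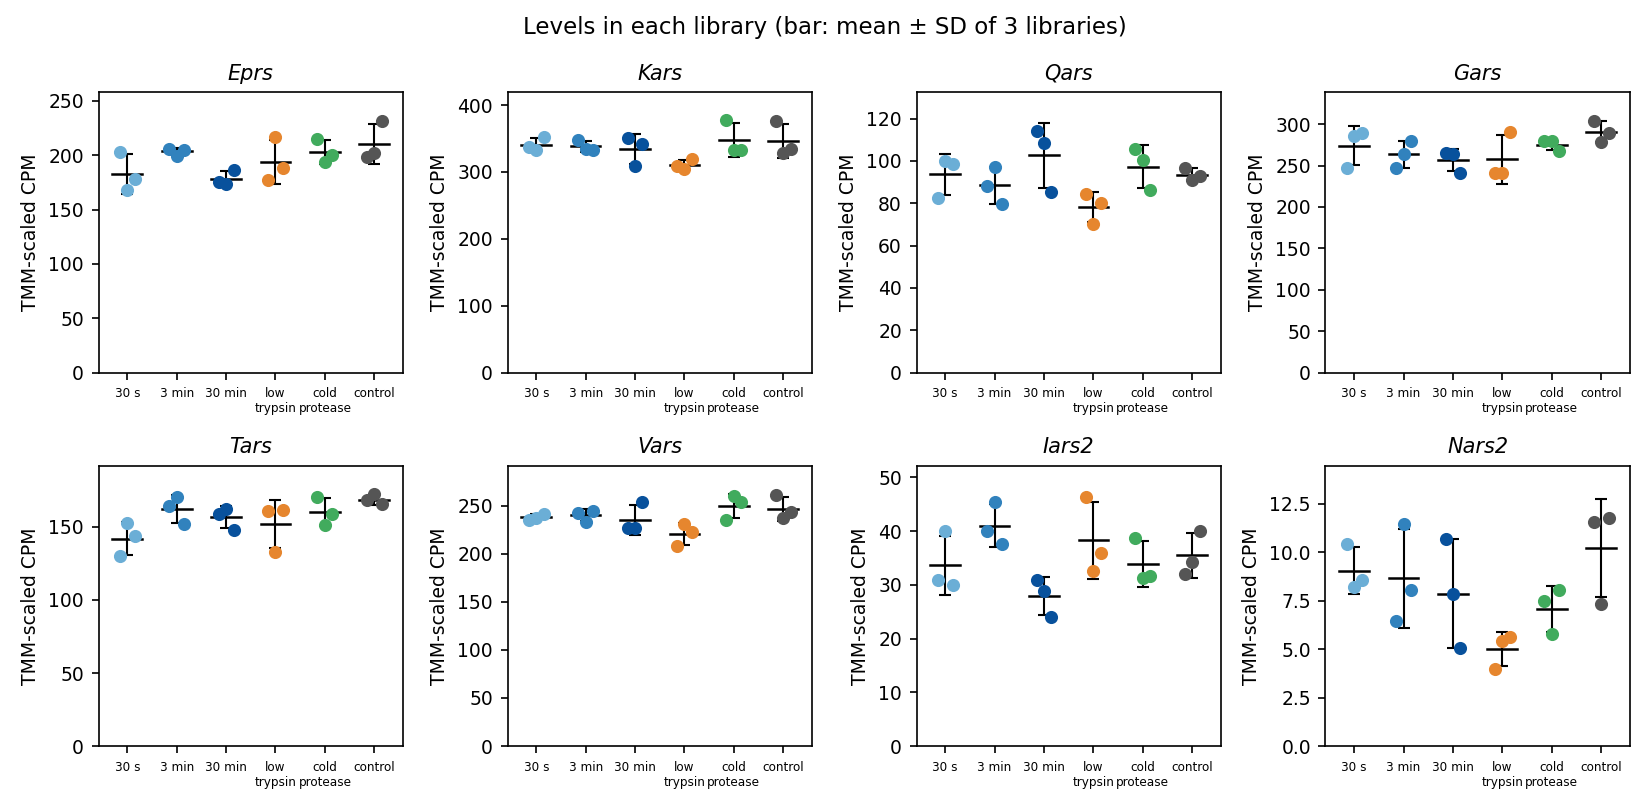
Level in each library (y axis, TMM-scaled CPM, from 0) by group (x axis) for the 8 synthetases other than Lars2 with an unadjusted p under 0.05 in a comparison with control; points are libraries, bars the mean ± SD of 3. Differences are small beside the level for the cytosolic genes, and Nars2 in low trypsin (3.98 to 5.61 CPM) lies under control (7.33 to 11.8 CPM).

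After 30 min in trypsin, several regulators of the integrated stress response were higher and no synthetase was called. Of the 19 regulators tested, 8 were called higher and 0 lower (2.07% of all genes tested were called higher), with a median log2 change of 0.45, whereas 0 of the 20 cytosolic synthetases were called and their median was -0.05. Atf4 had 835, 811 and 830 CPM after 30 min, against 544, 545 and 519 CPM in control libraries. The groups were far apart, with a log2 change of 0.62 ± 0.05 (95% interval 0.52 to 0.73, edgeR adjusted p = 7.35e-13). Ddit4, an inhibitor of mTORC1 signalling, had 128, 116 and 94.6 CPM after 30 min, against 65.5, 58.6 and 61.8 CPM in control libraries (log2 0.87 ± 0.12, edgeR adjusted p = 5.36e-07). Chac1, which degrades glutathione, had 15.1, 24.1 and 16.4 CPM after 30 min, against 6.42, 2.93 and 5.66 CPM in control libraries (log2 1.92 ± 0.32, edgeR adjusted p = 3.27e-05). For both genes all 30 min libraries were above all control libraries. Nupr1, a stress-induced chromatin protein shown above for its promoter, had 84.2, 65.5 and 69.98 CPM after 30 min, against 41.1, 39.6 and 49.0 CPM in control libraries (log2 0.75 ± 0.13, edgeR adjusted p = 9.33e-05). In none of the other 4 treatments was a regulator called higher, and Nupr1 was called lower after 30 s (log2 -0.78 ± 0.16, edgeR adjusted p = 0.000285).

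Of the 8 regulators called higher at 30 min, the stricter element was found only in Atf3, Chac1 and Nupr1. Among the rest, the windows of Atf4, Ddit3 and Ddit4 had no match of either form. Of the listed regulators, Trib3 had 1 match of the looser form only, and the window of Ppp1r15a had none. Trib3 had 10.1, 11.5 and 6.93 CPM after 30 min, against 3.21, 2.44 and 4.71 CPM in control libraries. Atf3, a stress-induced transcription factor, had 6.91, 6.29 and 6.93 CPM after 30 min, against 1.284, 2.44 and 2.36 CPM in control libraries (log2 1.65 ± 0.48, edgeR adjusted p = 0.0335). The 4 synthetases with the element were not called at 30 min. Aars, the alanyl enzyme, had 219, 225 and 213 CPM after 30 min, against 198, 202 and 206 CPM in control libraries, which did not overlap (log2 0.12 ± 0.07, 95% interval -0.03 to 0.26). Yars, the tyrosyl enzyme, had 115, 105 and 116 CPM after 30 min, against 99.5, 102 and 97.6 CPM in control libraries, again without overlap (log2 0.17 ± 0.10, 95% interval -0.04 to 0.37). Iars, the isoleucyl enzyme, had 103, 105 and 124 CPM after 30 min, against 117, 99.6 and 110 CPM in control libraries, with overlap (log2 0.03 ± 0.10, 95% interval -0.17 to 0.23). Tars had 159, 162 and 148 CPM after 30 min, against 168, 172 and 165 CPM in control libraries (log2 -0.11 ± 0.08, 95% interval -0.28 to 0.06). For these 4 the edgeR adjusted p-values were 0.438, 0.439, 0.941 and 0.605. The upper bounds of all 4 intervals lie under the lower bound for Atf4. Mars, the methionyl gene, shares 68 exonic bases on the opposite strand with Ddit3, a regulator that was called higher at 30 min, and the sources used here do not give the strand used in counting. Mars had 72.9, 75.5 and 75.0 CPM after 30 min, against 84.7, 73.8 and 76.4 CPM in control libraries.

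**Figure D4:**
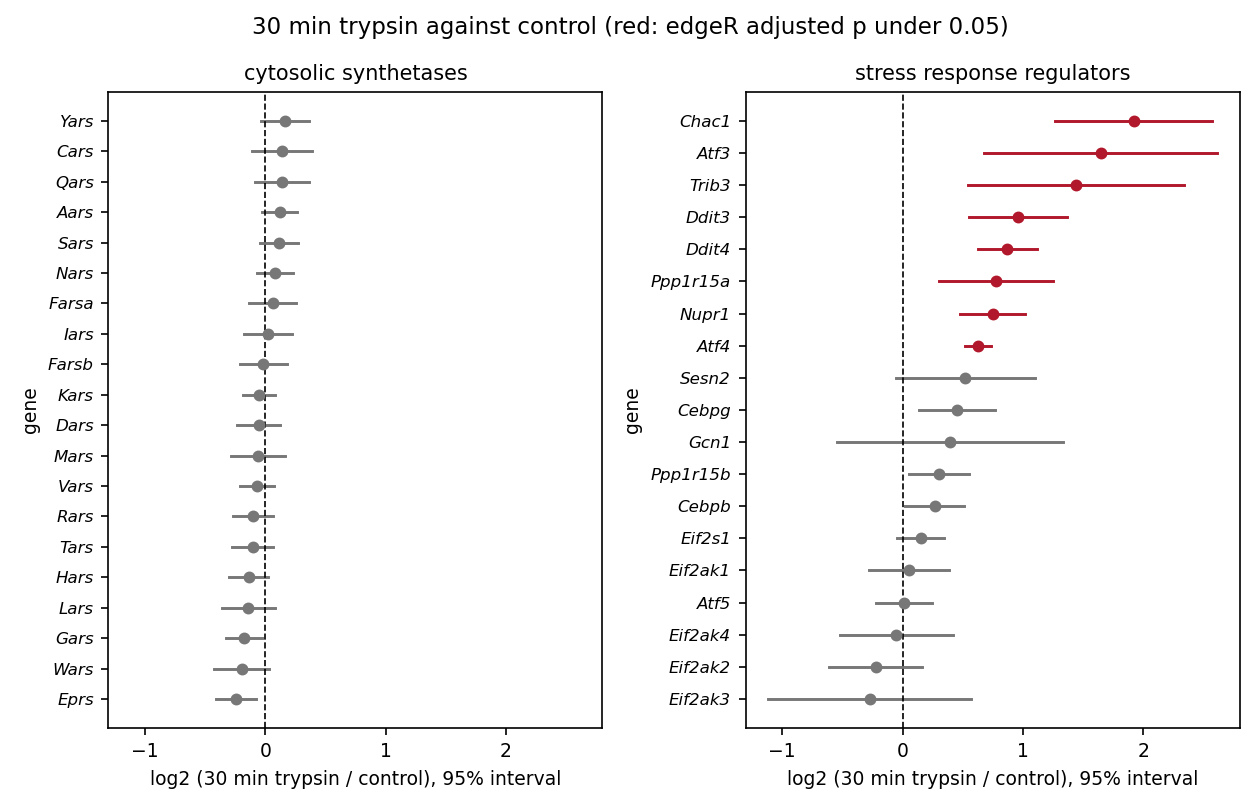
Points give the log2 change at 30 min against control and lines its 95% interval (x axis), for the 20 cytosolic synthetases on the left and the 19 tested stress response regulators on the right (y axis, genes); red marks an edgeR adjusted p under 0.05. All synthetase intervals lie between -0.42 and 0.39, while 8 regulators, from Atf4 at 0.62 to Chac1 at 1.92, are red.

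Among other genes around tRNA charging, 2 elongation factor genes were called at 30 min. The scaffold genes Aimp1 and Eef1e1 were tested and neither was called in any treatment, with changes from -0.15 to 0.12, and Aimp2 was at 0 to 2.1 CPM and not tested. Of 14 further genes of charging and editing, such as the subunits of the mitochondrial amidotransferase, 0 were called by edgeR in any comparison with control, with at most 2 at an unadjusted p under 0.05. Of 6 genes that deliver charged tRNA to the ribosome, 2 were called lower at 30 min (2.61% of all genes tested). Eef1a1, the elongation factor that carries the tRNA, had 95.5, 63.4 and 65.6 CPM after 30 min, against 129, 115 and 113 CPM in control libraries, a log2 change of -0.67 ± 0.12 (edgeR adjusted p = 7.54e-05). Eef1g, part of its exchange factor, had 52.2, 55.6 and 53.0 CPM after 30 min, against 108, 85.5 and 86.7 CPM in control libraries, a log2 change of -0.79 ± 0.13 (edgeR adjusted p = 9.97e-06). Both were also called lower after 30 s and for low trypsin. Both have many copies in the genome, and the sources used here do not say how reads with several matches were counted.

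Amino acid supply genes differed from gene to gene. Of 8 transporter genes tested, 1 was called higher at 30 min, Slc38a2 (2.07% of all genes tested were called higher). Slc38a2, a carrier of neutral amino acids, had 537, 589 and 542 CPM after 30 min, against 394, 412 and 447 CPM in control libraries (log2 0.41 ± 0.06, edgeR adjusted p = 1.74e-06). Of 13 synthesis genes, 0 were called higher and 1 lower at 30 min, Phgdh (2.61% of all genes tested were called lower). Phgdh, which starts serine synthesis, had 8.17, 11.5 and 5.67 CPM after 30 min, against 28.2, 21.5 and 21.2 CPM in control libraries (log2 -1.43 ± 0.27, edgeR adjusted p = 0.000177). In both genes the 30 min and control libraries did not overlap. Phgdh was also called lower after 30 s and for low trypsin.

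Most mitochondrial synthetases were counted less deeply and their intervals were wider. Among the 17, the 95% interval of the change lay within 0.5 of 0 for 6 genes at 30 s, 6 at 3 min, 4 at 30 min, 3 in low trypsin and 5 with the cold-active protease. Median changes were -0.01, 0.0076, -0.03, 0.06 and 0.03 in the same order. The groups did not overlap for 1, 0, 2, 3 and 0 of the 17 genes, against 21.9%, 17.6%, 19.5%, 19.6% and 14.1% of all genes tested. In low trypsin the sign of the median depended on the libraries and on the fit. It was -0.12 without control replicate 3 and -0.10, -0.015 and -0.023 without low trypsin replicates 1, 2 and 3. With only the groups compared in the fit it was -0.097, and with the length trend removed -0.0081. Cars2, the mitochondrial cysteinyl gene, had the widest swing of the uncalled genes and was close to the floor in counts, with 5.21, 6.15 and 9.10 CPM after 30 s and 0.629, 1.57 and 3.78 CPM after 30 min, against 4.49, 3.91 and 3.30 CPM in control libraries. Its 30 s libraries were above control and its 30 min libraries overlapped it, and neither change was called (log2 0.80 ± 0.44 and -0.94 ± 0.59, edgeR adjusted p = 0.388 and 0.463). Cars2 also shares 422 exonic bases on the opposite strand with Naxd.

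Nars2, the mitochondrial asparaginyl gene, had 3.98, 5.41 and 5.61 CPM in low trypsin, against 11.6, 7.33 and 11.8 CPM in control libraries. All low trypsin libraries were under all control libraries, and the log2 change of -1.01 ± 0.35 missed the threshold (edgeR adjusted p = 0.0843). Nars2 shares 284 exonic bases on the opposite strand with an uncharacterised transcript. Iars2, the mitochondrial isoleucyl gene, had 30.8, 28.8 and 24.0 CPM after 30 min, against 32.1, 34.2 and 40.1 CPM in control libraries. The 30 min libraries lay under control (log2 -0.35 ± 0.18, edgeR adjusted p = 0.302). They also lay under the 3 min libraries, which had 40.05, 45.4 and 37.5 CPM (log2 -0.56 ± 0.18, edgeR adjusted p = 0.0566), a difference that robust edgeR and limma-trend called. Iars2 shares 2034 exonic bases on the opposite strand with Rab3gap2, so reads of both genes may be mixed.

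Lars2, the mitochondrial leucyl gene (GRCm38 chr9:123366927-123462666, plus strand), was the only synthetase called in the main edgeR fit. Other edgeR settings also called Tars, Eprs or Iars2. It differed among the 6 groups (edgeR F test, adjusted p = 0.00401), where edgeR called 11.5% of all genes tested and DESeq2 8.84%, Lars2 not among them (adjusted p = 0.525). At an unadjusted p under 0.05 in that test there were 5 of 37 synthetases, against 22.2% of all genes. Its levels were 55.6, 43.0 and 236 CPM after 30 s, 56.5, 145 and 404 CPM after 3 min, and 122, 76.0 and 101 CPM after 30 min. Low trypsin libraries had 37.4, 49.3 and 78.5 CPM and cold-active protease libraries 103, 61.8 and 54.5 CPM, against 214, 148 and 74.5 CPM in control libraries. Single libraries in the 30 s and 3 min groups stood several times above the others of their group, and every treated group overlapped control.

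Against control, Lars2 was called lower for low trypsin, where 1.9% of all genes tested were called lower. The log2 change was -1.35 ± 0.40 and the edgeR adjusted p 0.0341. The highest low trypsin library was above the lowest control library. The adjusted p was 0.422 in DESeq2, 0.481 in edgeR with robust dispersion and 0.445 in limma-trend, and an exact two-sided permutation test of the 3 against 3 log2 values gave p = 0.2, where 0.1 is the smallest possible. The edgeR fits differ in the spread they give the gene: the quasi-dispersion of Lars2 from its own libraries was 51.9, edgeR moved it to 12.9 towards that of other genes, and robust edgeR kept 51.05. The edgeR calls of Lars2 used a spread smaller than that of its own replicates. The edgeR call was lost without control replicate 1 (adjusted p = 0.235), control replicate 2 (0.0976), low trypsin replicate 1 (0.187) or low trypsin replicate 2 (0.136). Against 3 min, Lars2 was called lower for low trypsin (log2 -1.83 ± 0.39, edgeR adjusted p = 0.00105, with 0.576% of genes called lower) and for the cold-active protease (log2 -1.42 ± 0.37, edgeR adjusted p = 0.0134, with 0.864%). Both rest on 3 min replicate 3 at 404 CPM: without it the log2 changes were -0.87 (edgeR adjusted p = 0.351) and -0.46 (edgeR adjusted p = 0.75). The second was also lost without cold-active protease replicate 2 (edgeR adjusted p = 0.114) or 3 (0.0924). DESeq2 gave adjusted p-values of 0.18 and 0.515, and exact two-sided permutation tests gave p = 0.2 and 0.3.

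The spread of Lars2 between libraries of a group was the widest of the 37 synthetases. Its within-group SD of log2 CPM was 0.905, rank 2 among 8532 genes averaging 10 CPM or more, whereas the cytosolic synthetases had 0.0586 (Aars) to 0.153 (Cars) and the other mitochondrial ones, which had lower counts, 0.122 (Ears2) to 0.534 (Cars2). Rank 1 was Gm15564, a noncoding RNA gene (GRCm38 chr16:35966752-35983230, minus strand), with an SD of 1.05. Gm15564 was also the gene most correlated with Lars2 of 8531 genes over the 18 libraries, in each of which both genes have the same depth and preparation. Pearson's r of log2 CPM was 0.89 and Spearman's rho 0.87, and r was 0.94 after removing group means and 0.89 without the 2 libraries farthest from the median. The gene was found by this search, so these values are a description.

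Gm15564 had 16.1, 15.4 and 116 CPM after 30 s, 14.1, 67.2 and 97.8 CPM after 3 min and 79.2, 38.3 and 37.8 CPM after 30 min. Low trypsin libraries had 16.9, 27.1 and 34.6 CPM and cold-active protease libraries 63.5, 25.9 and 41.3 CPM, against 108, 52.8 and 27.3 CPM in control libraries. The libraries with the highest level of Lars2 within the 30 s, 3 min, 30 min, low trypsin, cold-active protease and control groups also had the highest level of Gm15564 there. In the GENCODE M21 transcripts the genes share an identical run of 52 bases, at positions 3278 to 3329 of the 3894-base Lars2 transcript, which ends 565 bases before its 3′ end. Lars2 shared at least 1 run of 31 bases with 58 annotated genes, so shared sequence is not particular to Gm15564. Lars2 shared 22 such runs with Gm15564, against 38 with Gm47414, 35 with Gm36618 and 26 with AA474408. Runs were counted from every starting base and overlap, so they are not separate stretches, and the 22 lie within the 52 bases above. The part of this shared sequence in the Lars2 values was not tested.

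**Figure D5:**
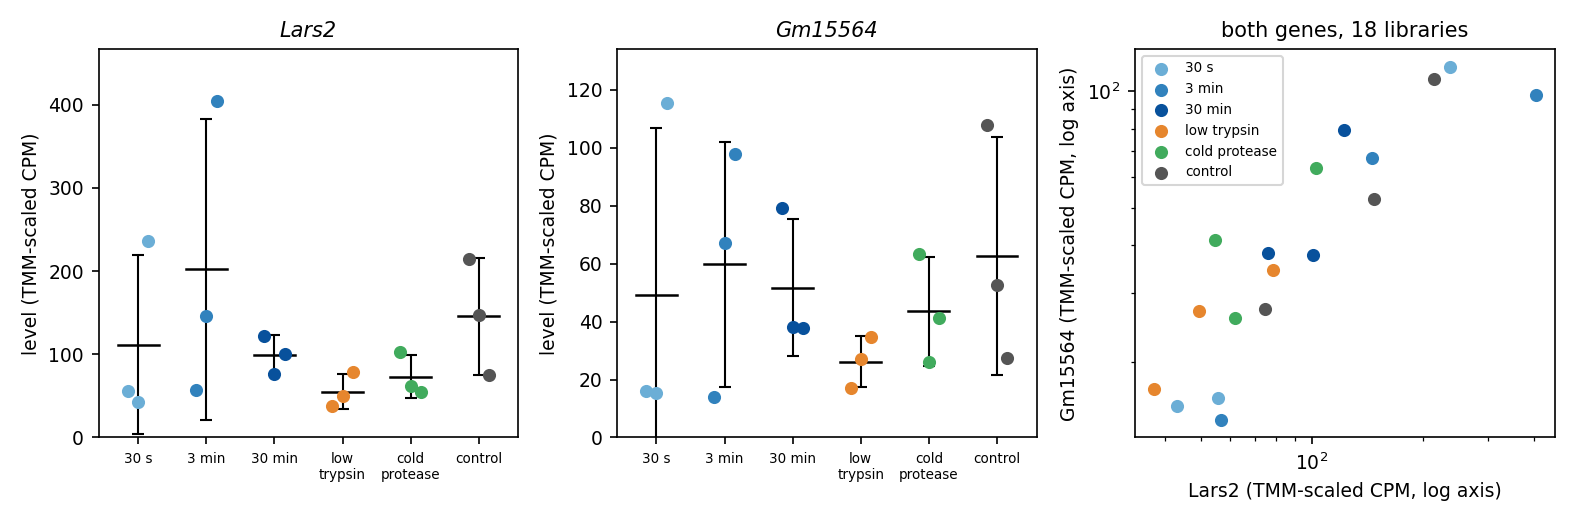
Left and middle, level of Lars2 and Gm15564 in each library (y axis, TMM-scaled CPM) by group (x axis), with bars for the mean ± SD of 3; right, both levels in the 18 libraries on log axes. Libraries higher in Lars2 (37.4 to 404 CPM over all libraries) tend to be higher in Gm15564 (14.1 to 116 CPM), but the extremes of each gene fall in different libraries.

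Between treatments, no synthetase other than Lars2 was called by edgeR as fitted for these comparisons, while robust edgeR and limma-trend called Iars2 for 30 min against 3 min. DESeq2 called 0 synthetases in the 4 comparisons, and 1.51%, 3.16%, 3.53% and 2.9% of all genes. For 3 min against 30 s (1.94% of all genes called by edgeR), 4 of 37 synthetases had an unadjusted p under 0.05 (10.1% of all genes). Among them Iars had 110, 124 and 124 CPM after 3 min and 88.2, 97.9 and 107 CPM after 30 s, without overlap (log2 0.29 ± 0.10, edgeR adjusted p = 0.158). Nars, the asparaginyl gene, had 194, 221 and 206 CPM after 3 min and 232, 233 and 235 CPM after 30 s, also without overlap (log2 -0.17 ± 0.07, edgeR adjusted p = 0.355). For 30 min against 3 min (4.03% called by edgeR), 4 of 37 had an unadjusted p under 0.05 (13.5% of all genes), Iars2 among them. For low trypsin against 3 min (4.36% called by edgeR) there were 4 (12.8% of all genes), including Farsa, a phenylalanyl subunit, with 91.7, 89.3 and 103 CPM in low trypsin and 112, 114 and 125 CPM after 3 min. Farsa did not overlap and missed the threshold (log2 -0.30 ± 0.10, edgeR adjusted p = 0.0739). For the cold-active protease against 3 min (3.7% called by edgeR) there were 2 (11.8% of all genes), Lars2 and Dars, the aspartyl gene, with 139, 137 and 125 CPM after the protease and 160, 143 and 157 CPM after 3 min (log2 -0.19 ± 0.09, edgeR adjusted p = 0.367).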

How the data were processed

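BRB-seq counts of 18 C2C12 libraries were analysed in the 6 groups of 3 that the labels give. Per the submitters' processing notes, the build was GRCm38 and the tools were HISAT2 2.1.0, featureCounts 2.0.1, UMI-tools 1.0.1, cutadapt 2.6, Trim Galore 0.6.6 and DESeq2 1.28.1. Their settings, the strand and the rule for reads matching several places are not given in the sources used here. Counts per gene, whole numbers as deposited, entered every test. A second deposited table, named as TPM, matched the counts divided by library totals in all 467226 values to within 1e-06 and was treated as CPM. The authors' normalized signal values equalled counts divided by size factors of 0.797 to 1.3 and entered no test.

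Genes were filtered with edgeR's filterByExpr by group. All 18 libraries were fitted together, without covariate, in edgeR 4.0.16 (R 4.3.3) with TMM scaling and the quasi-likelihood F test, and p-values were adjusted over all 10075 genes by the Benjamini-Hochberg method; the common biological coefficient of variation was 6.08%. The 9 comparisons set each treatment against control, 3 min against 30 s, and 30 min, low trypsin and cold-active protease against 3 min, with an F test over the 6 groups. SE is the absolute log2 change over the square root of F. Alternatives were DESeq2 1.42.0, RLE and upper-quartile scaling, other filters, a fit to the groups compared alone, removal of a trend with mRNA length, the lot as a block, each library left out, and, added after seeing the data, robust edgeR, limma-trend (limma 3.58.1) and ratios without division by length. Exact permutation tests used log2(CPM + 1). Positions, mRNA lengths and runs of 31 shared bases came from GENCODE M21 (GRCm38), and promoter windows from RefSeq.

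The members and lists were chosen with earlier results of these data known. Genes named were the members called against control or among the groups, Atf4, and up to 3 called genes with the smallest p per list at 30 min; all others were named after their values were seen, or for their promoter. No pairing by lot was seen: over 45 pairs of the same lot in different groups, deviations from group means correlated by -0.068 to 0.0781. Over 90 pairs of different lots they correlated by -0.0751 to 0.0759. These deviations include counting error, so a weak pairing could have been missed. The count of 3 used as a floor covers counting error only. Of the 17 mitochondrial genes, 1 is not reported here by name and enters only sums, medians, ranges and counts.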

Additional observations from a re-analysis of the deposited data

How the results depend on the processing

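With the lot as a replicate block the number of synthetases called was as before in all 10 tests: 1 for low trypsin against control, low trypsin against 3 min, cold-active protease against 3 min and among the groups, and 0 in the others. Since no pairing by lot was seen and the labels do not say what a lot is, this says nothing of shared cultures. For low trypsin against control, low trypsin against 3 min, cold-active protease against 3 min and the test among the groups, the 1 call (Lars2) became 0 in DESeq2, in robust edgeR and in limma-trend; robust edgeR used a quasi-dispersion of 51.05 for Lars2, against 12.9, and for DESeq2 and limma-trend the cause was not tested. Without a filter on low counts, 1 synthetase (Lars2) was called where there had been 0: 30 s, 3 min, 30 min and cold-active protease against control, 3 min against 30 s and 30 min against 3 min. In that fit edgeR's prior degrees of freedom were infinite, so the replicate spread of single genes was not used and Lars2 had a quasi-dispersion of 0.904, against 51.4 from its own libraries; these added calls come from that setting. Fitting only the groups compared gave 1 call for 30 s against control (Tars), cold-active protease against control (Lars2) and 30 min against 3 min (Lars2). With the length trend removed there was 1 for 30 s (Tars) and 1 for 30 min against control (Eprs). Robust edgeR called 1 for 30 s against control (Tars) and, like limma-trend, 1 for 30 min against 3 min (Iars2). Leaving out each library in turn gave 0 to 1 calls for 30 s against control, 0 to 2 for low trypsin against control, 0 to 1 for 3 min against 30 s, 0 to 1 for 30 min against 3 min, 0 to 2 for low trypsin against 3 min, 0 to 1 for cold-active protease against 3 min and 1 to 2 among the groups, and 0 throughout for 3 min, 30 min and cold-active protease against control. Apart from Lars2, the genes called with a library left out were Tars or Eprs (30 s against control) and Gars (low trypsin against control). Farsa (low trypsin against 3 min) and Qars (among the groups) were called likewise. Depth limits the mitochondrial genes: Aars2, the lowest in mean level (3.99 CPM), had 4 to 13 counts per library and Cars2 had 1 to 17.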
